A study of Mus musculus with 6 samples.

Results

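Markers of Langerhans cells and macrophages were followed in the epidermis of healing suction blisters. The set was given by name and holds 10 genes of the 24014 listed: Cd207, Epcam, Cd74, H2-Aa, H2-Ab1, H2-Eb1, Csf1r, Cx3cr1, Tyrobp and Aif1. All 10 were found in every table, and all 10 passed the filter on low counts. The samples were epidermal cells of newborn mice at postnatal day 2, with 3 RNA-seq libraries from dorsal skin healing after a suction blister and 3 from control skin of the same age. The labels give no genotype, strain or agent. A blister of typically 3 mm was raised under a syringe 4 mm wide at 523.4 ± 1.3 mmHg. Epidermal cells were freed with 0.25% trypsin and passed through a 70 µm filter without sorting, so each library is a mixture of whatever cells came away with the epidermis. Nothing in the labels ties a library to an animal or a pool of animals, so p-values reflect library-to-library spread alone, and part of it may be technical.

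Langerhans cells are the resident antigen-presenting cells of the epidermis. Their precursors are myeloid cells that enter the skin before birth, depend on the receptor encoded by Csf1r and on its ligand interleukin 34 from keratinocytes, and acquire langerin (Cd207) and high MHC class II around and after birth, so newborn skin is caught in the middle of this maturation. Class II molecules are pairs of an alpha and a beta chain that carry peptides from engulfed proteins to CD4 T cells, and Cd74 encodes the invariant chain that escorts them. Dermal macrophages, monocytes and, for some of these genes, neutrophils express the myeloid markers too, and Epcam is a general gene of epithelia, including the growing hair follicle.

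Class II promoters are known for a shared layout of sequence elements, and 2 of them are shown, those of H2-Aa and H2-Eb1. Among the 10 markers the class II genes lay nearest to one another across the libraries, as described further on. That closeness does not single out these 2, since the nearest member to each was Cd74. RefSeq promoter windows (GRCm38.p6, another build than the one of the files) were matched by symbol for 6 of the 10 genes. H2-Aa is shown for chr17:34287824-34287943 on the minus strand and H2-Eb1 for chr17:34305747-34305866 on the plus strand, 120 bases up to the transcription start, written 5′ to 3′ with the letters GCAAC and ATTGG in capitals.
H2-Aa: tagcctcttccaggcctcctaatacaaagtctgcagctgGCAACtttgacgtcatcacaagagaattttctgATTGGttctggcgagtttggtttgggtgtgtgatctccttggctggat
H2-Eb1: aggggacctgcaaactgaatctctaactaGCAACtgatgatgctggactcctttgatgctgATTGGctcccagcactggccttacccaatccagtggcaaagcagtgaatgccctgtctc
ATTGG is the reverse complement of the CCAAT element that forms the Y box of class II promoters, and GCAAC is part of the X box as textbooks give it. The start of GCAAC lay at -81 in H2-Aa and at -91 in H2-Eb1, and 28 and 27 bases separated it from ATTGG. A search of 250 bases upstream on both strands for GCAAC followed by ATTGG after 25 to 30 bases, a spacing set after these promoters were seen, found the pair in 78 of 32851 windows (0.237%). It was found in 2 of the 6 matched genes, H2-Aa and H2-Eb1, whose hits were fixed by that choice of spacing. In a class II pathway list it was found in 3 of the 16 matched genes, H2-Eb2, H2-Oa and H2-Ob. ATTGG alone was in 33.8% of windows and also in that of Cx3cr1. These are matches of letters, not measured binding.

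Libraries held 7600567 to 15912863 counts. Values are CPM, that is counts divided by TMM-adjusted library sizes and brought to a common total, and a gene is called changed where edgeR's quasi-likelihood test over all 14028 tested genes gave a Benjamini-Hochberg adjusted p under 0.05. By that rule 21.3% of tested genes were called, 9.74% higher and 11.6% lower in blister, so that 45.7% of the calls were higher (34.4% with upper-quartile scaling and 16.1% with library size alone, which moved the median log2 fold change of all genes to -0.25 from 0.00). Keratinocyte markers dominated every library, at a summed 59791 to 185964 CPM for 6 genes. Summed CPM of 11 dermal fibroblast markers ran from 584 to 1404 in blister and from 948 to 7265 in control, highest in control 3. That of 18 neutrophil markers ran from 319 to 1054 in blister and from 30.6 to 46.2 in control. Xist, a female-specific RNA, was at 837 to 1407 CPM in blister 1, blister 2 and control 1 and at 0.511 to 16.9 CPM in the other 3 libraries.

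Of the 10 markers, 1 rose and 1 fell, beside 9.74% and 11.6% of all genes, so the share of markers called was near the background. Tyrobp rose 2.51-fold and Cx3cr1 fell 2.69-fold, while the class II genes, Csf1r, Epcam and Aif1 were not called and Cd207 leaned upwards without passing. The median log2 fold change of the 10 was -0.18, against 0.00 over all genes tested, and 8 of the 10 values were below 0. CPM ranges of the groups did not overlap for 3 of the 10, with Cd207 and Tyrobp higher and Cx3cr1 lower in blister. The same held for 44.6% of all genes tested (21.5% higher and 23.1% lower). In bulk RNA, fewer cells of a type and less RNA per cell cannot be told apart, here and in every result below.

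**Figure D1:**
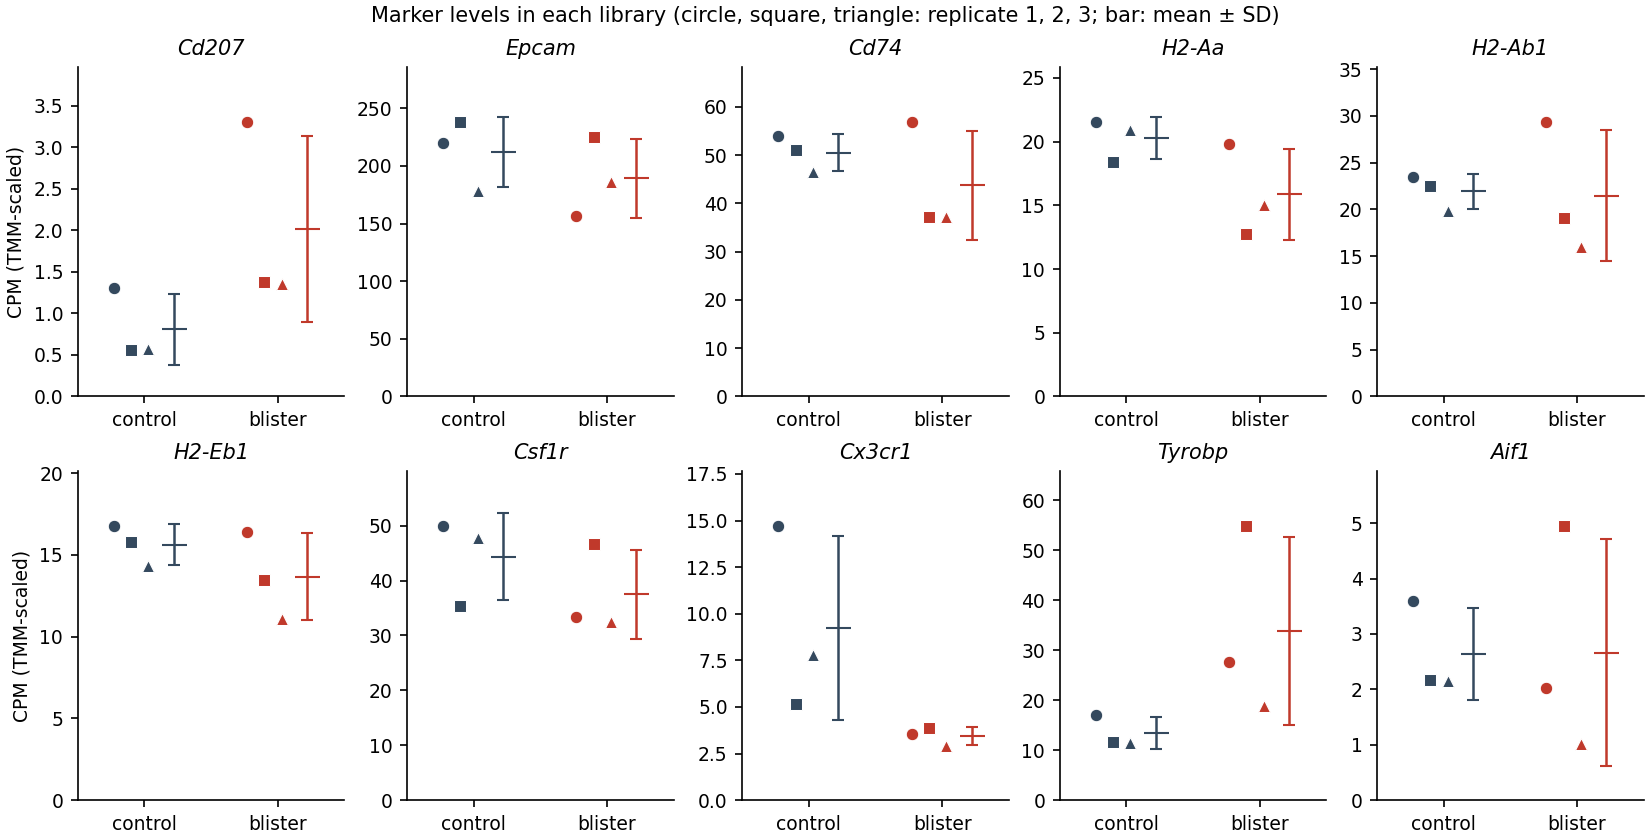
Each panel plots the TMM-scaled CPM of 1 marker (vertical axis, linear, from 0) in the 3 control and 3 blister libraries, with replicates as circle, square and triangle and the bar at the group mean ± SD. The groups separate for Cd207, Cx3cr1 and Tyrobp, by a narrow margin for Cd207, and overlap for the other 7 genes.

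Langerin was barely detected. Cd207, the lectin that forms the Birbeck granules of Langerhans cells, had 36, 10 and 16 counts in blister 1, 2 and 3, while control 1, 2 and 3 had 17, 8 and 10 counts. That is 3.30, 1.38 and 1.36 CPM in blister, against 1.30, 0.560 and 0.568 CPM in control. The lowest blister library stood just above the highest control, and blister 1 was alone above 2 CPM. Exact 95% Poisson intervals, which cover counting error only, were 2.31 to 4.57 CPM for blister 1, 0.776 to 2.20 CPM for blister 3 and 0.759 to 2.09 CPM for control 1. The log2 fold change of Cd207 was 1.34 ± 0.52 (SE, n = 3 each, 95% interval 0.12 to 2.56), with an edgeR adjusted p of 0.102. It was 0.78 without blister 1 (edgeR adjusted p = 0.351), so a rise of langerin RNA was not established at this depth.

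Epcam did not follow Cd207. This adhesion molecule of epithelia is used in skin as a marker of Langerhans cells and was the most abundant of the 10 per length. Which cells its RNA came from was not tested. Its level per kilobase of exon in control was 102.8 ± 14.8 CPM, against 0.532 ± 0.280 CPM for Cd207 (SD, n = 3). It stood at 157, 225 and 186 CPM in blister 1, 2 and 3, while control 1, 2 and 3 had 220, 238 and 179 CPM. The groups overlapped, with blister 1 lowest and control 2 highest, and the log2 fold change was -0.17 ± 0.17 (SE, 95% interval -0.57 to 0.24, edgeR adjusted p = 0.509). Among 13 other genes of epithelial adhesion 2 rose and 0 fell by edgeR, beside 9.74% and 11.6% of all genes. At an unadjusted p under 0.05, 2 of these adhesion genes were lower, DESeq2 called 1 lower, and their median log2 fold change was 0.10. The rises numbered 0 without blister 1, control 1 or control 3 and 1 without control 2. Cdh1, the E-cadherin gene, rose from 712 ± 47.7 to 1014 ± 83.9 CPM (edgeR adjusted p = 0.0330), a call lost without blister 1 or any 1 control (edgeR adjusted p up to 0.126). In a list of 11 follicle genes 10 fell, with a median of -2.08 (5 without blister 1 and 6 without control 1), while Epcam was not called. The ratio of Epcam to Cdh1 counts was 0.147, 0.246 and 0.176 in blister 1, 2 and 3, while control 1, 2 and 3 had 0.314, 0.312 and 0.266. It was lower in all 3 blister libraries, with an adjusted p of 0.2 in a two-sided exact permutation test.

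None of the 4 class II genes was called, and among the 10 markers each lay nearest to another of the 4. Cd74 stood at 56.8, 37.1 and 37.2 CPM in blister 1, 2 and 3, while control 1, 2 and 3 had 54.0, 51.1 and 46.5 CPM. H2-Aa, the alpha chain of I-A, stood at 19.8, 12.8 and 15.0 CPM in blister, against 21.5, 18.4 and 20.9 CPM in control. H2-Ab1, its beta chain, stood at 29.3, 19.1 and 16.0 CPM in blister, against 23.4, 22.5 and 19.9 CPM in control. H2-Eb1, the beta chain of I-E, stood at 16.4, 13.5 and 11.1 CPM in blister, against 16.8, 15.8 and 14.3 CPM in control. For all 4 genes blister 1 was the highest of the blister libraries and lay within or above the control range, while blister 2 and blister 3 lay below every control. Summed over the 4 genes, the level was 122, 82.5 and 79.3 CPM in blister, against 116, 108 and 102 CPM in control.

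None of these differences passed the test. The log2 fold change was -0.21 ± 0.18 for Cd74 (SE, edgeR adjusted p = 0.439), -0.35 ± 0.19 for H2-Aa (0.215), -0.030 ± 0.23 for H2-Ab1 (0.936) and -0.19 ± 0.19 for H2-Eb1 (0.483). The 95% intervals reached down to -0.64, -0.80, -0.57 and -0.64 in the same order and up to 0.22, 0.10, 0.51 and 0.25, so a fall of more than 2-fold lay outside each of them. Without blister 1 the adjusted p of Cd74 was 0.0942 and that of H2-Aa 0.109. With library size alone H2-Aa was called lower (edgeR adjusted p = 0.0433) at -0.62, which is to be read beside the -0.25 of all genes there. The estimate of H2-Ab1 changed sign in 4 of 18 alternatives.

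Groups overlapped in the ratios of the class II chains to Cd74. The ratio of H2-Aa to Cd74 counts was 0.399, 0.360 and 0.449 in control and 0.348, 0.344 and 0.403 in blister, each in the order 1, 2 and 3, with blister 1 and blister 2 below every control. The ratio of H2-Eb1 to Cd74 counts was 0.311, 0.310 and 0.308 in control 1, 2 and 3 and 0.289, 0.363 and 0.298 in blister 1, 2 and 3. For H2-Ab1 to Cd74 it was 0.434, 0.441 and 0.427 in control and 0.516, 0.515 and 0.428 in blister, with blister 1 and blister 2 above every control. As a measure of likeness, log2 CPM was centred on each gene's mean over the 6 libraries and the root mean square distance between genes was taken. The nearest member to H2-Aa, H2-Ab1 and H2-Eb1 was Cd74, at 0.135, 0.119 and 0.104. Genes outside the set lay nearer to H2-Aa than this, with Zfp182 at 0.0604 the nearest of 11229. Among so many candidates a nearer gene is likely to be found. The comparison therefore cannot tell whether the closeness is particular to class II genes. For Cd207, Cx3cr1 and Aif1 the nearest member was 0.659, 0.604 and 0.497 away.

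Few genes of the machinery around class II were called, at a share near that of all genes. Of 14 tested genes of the pathway (loading, proteolysis and transcription) 0 rose and 2 fell by edgeR, the same counts as at an unadjusted p under 0.05 and with DESeq2, with a median log2 fold change of -0.024, beside 9.74% higher and 11.6% lower over all genes. March8, a ubiquitin ligase that removes class II and other surface proteins, fell from 54.1 ± 3.90 to 36.7 ± 6.37 CPM (edgeR adjusted p = 0.0382), and Rfxank, a subunit of the RFX complex on the X box, fell from 17.1 ± 1.27 to 11.2 ± 1.64 CPM (adjusted p = 0.0458). Each of the 2 calls held without blister 3 and was lost without any other single library, with edgeR adjusted p-values reaching 0.110 for March8 and 0.133 for Rfxank. Ciita, the master coactivator of class II genes, had 17, 2 and 21 counts in blister, against 21, 28 and 40 in control (log2 fold change -0.63, adjusted p = 0.401 by edgeR). Of 6 tested genes of interferon gamma signalling, the classical inducer of Ciita, 2 rose and 0 fell by edgeR (0 fell also at an unadjusted p under 0.05 and with DESeq2), with a median of 0.42. It was 3 higher without blister 3, and 1 without blister 1 or any 1 control. Jak1, a receptor kinase, rose from 175 ± 7.85 to 271 ± 47.7 CPM (adjusted p = 0.0281), a call lost without blister 1 or any 1 control (edgeR adjusted p up to 0.106). Among 10 genes of the class I pathway edgeR called 0, as did DESeq2, and 0 were under an unadjusted p of 0.05, though 2 were called higher without blister 3. H2-D1, a class I heavy chain, was at 75.0, 102.2 and 52.2 CPM in blister, against 55.4, 55.0 and 47.9 CPM in control (edgeR adjusted p = 0.128, and 0.0209 without blister 3).

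Csf1r, the growth factor receptor on which macrophages and Langerhans cells depend, was not called. It stood at 33.3, 46.8 and 32.4 CPM in blister 1, 2 and 3, while control 1, 2 and 3 had 50.0, 35.3 and 47.8 CPM. The ranges overlapped through blister 2 and control 2. Its log2 fold change was -0.25 ± 0.19 (SE, 95% interval -0.70 to 0.21, edgeR adjusted p = 0.375). With the level of dermal markers as a covariate it was -0.00051 ± 0.25 (SE). Since 50.2% of the variance of that level lay between the groups, such a fit also takes up part of the group difference. Whether dermal cells carried the difference in Csf1r was not tested. Of its 2 ligands, Csf1 rose from 16.2 ± 6.86 to 45.0 ± 12.6 CPM, by 1.46 ± 0.32 (SE) in log2 (adjusted p = 0.0215 by edgeR). Il34, the ligand made by keratinocytes, was at 100.7, 42.8 and 55.5 CPM in blister, against 45.4, 58.4 and 26.5 CPM in control (edgeR adjusted p = 0.257). The call of Csf1 was lost without blister 1, control 1 or control 2 (edgeR adjusted p up to 0.0690). A list covered growth factors, their receptors and the TGF-beta route by which Langerhans cells settle. In it 3 of 15 tested genes rose and 2 fell, beside 9.74% and 11.6% of all genes, with a median of 0.43. Rises and falls were 0 and 0 without blister 1 or control 1, 0 and 1 without control 2, 5 and 3 without blister 3, and 2 and 1 without control 3; without blister 2 there were 2 rises. Beside Csf1, those that rose were Csf2rb and Csf2rb2, receptor chains of the GM-CSF family (3.58 ± 1.40 to 13.4 ± 5.44 CPM and 1.88 ± 0.349 to 6.37 ± 3.59 CPM, edgeR adjusted p = 0.0215 and 0.0340). Both were lost without blister 1, blister 2, control 1 or control 2, and Csf2rb2 also without control 3 (edgeR adjusted p up to 0.0772 and 0.110). Those that fell were Tgfb2 (33.9 ± 2.40 to 13.3 ± 5.54 CPM, edgeR adjusted p = 0.0174) and Bmp7 (241 ± 33.8 to 157 ± 14.5 CPM, adjusted p = 0.0243), and both were lost without blister 1 or control 1, Tgfb2 also without control 2 and Bmp7 without blister 2 or control 3 (edgeR adjusted p up to 0.0656 and 0.0843).

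Cx3cr1, the fractalkine receptor of monocytes, macrophages and Langerhans cell precursors, fell. It stood at 3.58, 3.85 and 2.88 CPM in blister 1, 2 and 3, while control 1, 2 and 3 had 14.7, 5.18 and 7.78 CPM. The blister libraries lay close together and below every control, and control 1 stood far above the other controls. Its log2 fold change was -1.43 ± 0.40 (SE, 95% interval -2.36 to -0.49, edgeR adjusted p = 0.0428). The call held without control 2 (edgeR adjusted p = 0.0389) and was lost without blister 1 (0.115), blister 2 (0.0831), blister 3 (0.0850), control 3 (0.0741) or control 1 (0.126, with a log2 fold change of -0.92). Dermal fibroblast markers were lower in blister beside it (4 of 11 called, 2 without blister 1 or blister 3, median -2.62). With their level as a covariate the log2 fold change of Cx3cr1 was -1.64 ± 0.55 (SE, edgeR adjusted p = 0.124). Of the variance of that level 50.2% lay between the groups, so this fit cannot fully separate it from the group. Markers of other cell types were lower too, beside 11.6% of all genes called lower. Melanocyte genes fell in 5 of 7 cases with a median of -0.95 (2 without control 1, 3 without blister 1 or control 3), and endothelial genes in 2 of 8 with a median of -2.16 (0 without blister 1, blister 2 or control 3, and 1 without blister 3 or control 1). Their part in the fall of Cx3cr1 was not tested.

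Tyrobp, the signalling adaptor of activating receptors on myeloid and natural killer cells, rose. It stood at 27.7, 54.9 and 18.8 CPM in blister 1, 2 and 3, while control 1, 2 and 3 had 17.1, 11.7 and 11.4 CPM. Every blister library lay above every control, blister 2 most and blister 3 by a small margin. Its log2 fold change was 1.33 ± 0.39 (SE, 95% interval 0.43 to 2.23, edgeR adjusted p = 0.0474). The call held without blister 3 (edgeR adjusted p = 0.0164) and was lost without blister 1 (0.0893), control 1 (0.0840), control 2 (0.125), control 3 (0.127) or blister 2 (0.0831, with a log2 fold change of 0.81). With the level of Xist as a covariate the log2 fold change was 1.01 (edgeR adjusted p = 0.0966), and in each group the libraries with high Xist had the most Tyrobp. Neutrophils also carry Tyrobp. In the neutrophil list 11 of 12 tested members rose (8 to 12 with 1 library left out), beside 9.74% of all genes. The median of the list was 5.33. S100a9 rose from 3.08 ± 2.02 to 250 ± 113 CPM and S100a8 from 2.22 ± 1.17 to 162 ± 96.1 CPM (edgeR adjusted p = 0.00410 and 0.00418). For both genes blister 2 was the highest and blister 3 the lowest blister library, as for Tyrobp. The granule genes Elane, Mpo, Camp, Ltf, Ngp and Mmp8 of that list had too few counts to be tested. The neutrophil level and the group cannot be told apart, since 91.4% of the variance of that level lay between the groups. Whether neutrophils carried the rise of Tyrobp was not tested, nor which cells the S100a9 and S100a8 RNA came from.

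Some receptors that signal through Tyrobp rose with it. This route was taken from paired receptors to the kinases downstream. Of its 13 tested genes edgeR called 4 higher and 0 lower, beside 9.74% and 11.6% of all genes. The number lower was 0 also at an unadjusted p under 0.05 and with DESeq2, and the median log2 fold change was 0.87. There were 2 rises without blister 1, control 1 or control 2. Trem1, an amplifying receptor of neutrophils and monocytes, rose from 0.282 ± 0.147 to 19.7 ± 11.5 CPM (edgeR adjusted p = 0.00489). Trem3, a relative, had 27, 21 and 10 counts in blister, against 2, 0 and 0 in control (edgeR adjusted p = 0.0131). The others called were Cd300lb and Clec5a, both receptors that pair with Tyrobp (edgeR adjusted p = 0.0193 and 0.0438). Cd300lb was lost without control 1 or control 2 and Clec5a without any library other than blister 3 (edgeR adjusted p up to 0.0745 and 0.120). Fcer1g, the other adaptor of this kind, was at 26.3 ± 16.3 against 13.9 ± 3.49 CPM (edgeR adjusted p = 0.149), and the ratio of Tyrobp to Fcer1g counts was 1.40, 1.22 and 1.32 in blister against 0.953, 1.01 and 0.930 in control.

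Aif1, which encodes the actin-binding protein Iba1 of macrophages, was low and variable. It stood at 2.02, 4.95 and 1.02 CPM in blister 1, 2 and 3, while control 1, 2 and 3 had 3.60, 2.17 and 2.16 CPM. Blister libraries held both the highest and the lowest value. The log2 fold change was -0.032 ± 0.55 (SE, edgeR adjusted p = 0.971), and its 95% interval of -1.32 to 1.25 includes 2-fold changes in both directions.

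**Figure D2:**
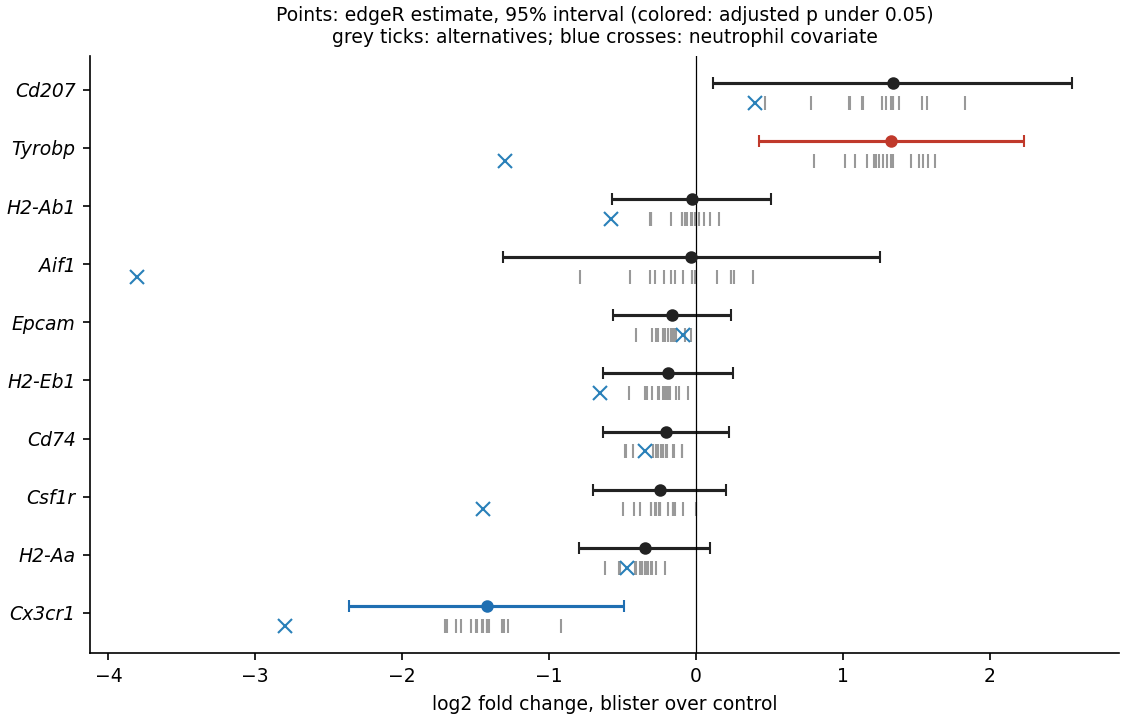
Log2 fold change of each marker, blister over control (horizontal axis), as the edgeR estimate with its 95% interval, in color where the adjusted p was under 0.05. Grey ticks are the alternatives and blue crosses the fit with the neutrophil level as a covariate. That fit put Tyrobp at -1.30 ± 1.02 (SE) in place of 1.33, called 0 of 14028 genes and says nothing about stability.

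Per kilobase of exon, the order of the genes in control was Epcam, Cd74, Tyrobp, H2-Ab1, H2-Aa, H2-Eb1, Csf1r, Aif1, Cx3cr1 and Cd207. Cd74 was at 35.7 ± 2.68 and Tyrobp at 23.7 ± 5.71 CPM per kilobase in control (SD, n = 3). H2-Ab1 and H2-Aa, at 18.11 ± 1.53 and 17.97 ± 1.47 CPM per kilobase, did not differ beyond their spread, nor did H2-Eb1 and Csf1r at 9.37 ± 0.748 and 9.08 ± 1.62, nor Aif1 and Cx3cr1 at 2.62 ± 0.823 and 2.05 ± 1.09. In blister Tyrobp came second, at 59.9 ± 33.3 CPM per kilobase, and its libraries overlapped those of Epcam (91.7 ± 16.7) and Cd74 (30.9 ± 8.01). Cx3cr1 came last, at 0.763 ± 0.110 CPM per kilobase, below Cd207 at 1.32 ± 0.734. Exon lengths came from GENCODE M21, another build than that of the files, and bear on this order alone.

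Ratios of counts within a library do not depend on scaling. The ratio of Tyrobp to Csf1r counts was 0.832, 1.17 and 0.579 in blister 1, 2 and 3, while control 1, 2 and 3 had 0.342, 0.331 and 0.238. For Cx3cr1 to Csf1r it was 0.107, 0.0824 and 0.0890 in blister, against 0.294, 0.147 and 0.163 in control. Cd207 to Cd74 gave 0.0581, 0.0370 and 0.0364 in blister, against 0.0241, 0.0110 and 0.0122 in control. The groups did not overlap in any of these 3 ratios. In a two-sided exact permutation test each reached p = 0.1, the smallest that 3 against 3 libraries can give, and 0.2 after Benjamini-Hochberg adjustment over the 14 ratios computed. Aif1 to Csf1r overlapped, at 0.0606, 0.106 and 0.0314 in blister against 0.0721, 0.0614 and 0.0451 in control (exact permutation p = 1). Cd74 to Csf1r overlapped too, at 1.71, 0.794 and 1.15 in blister against 1.08, 1.45 and 0.973 in control (exact permutation p = 1).

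**Figure D3:**
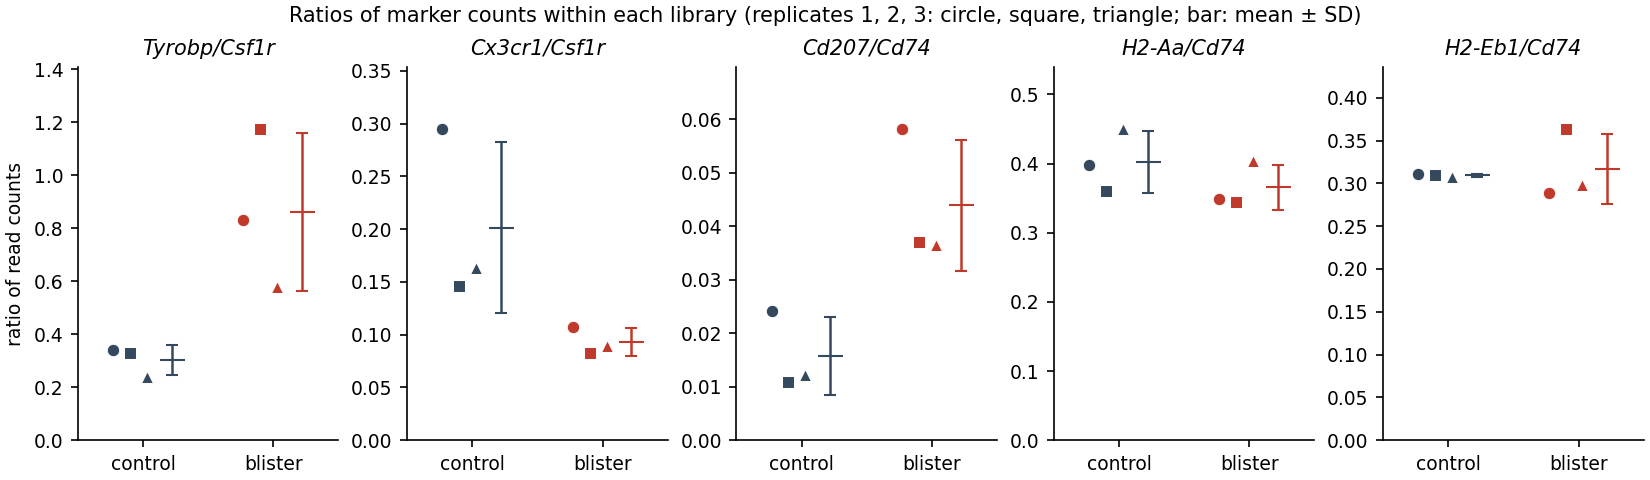
Ratios of read counts between 2 markers within each library (vertical axis, linear, from 0), with replicates as circle, square and triangle and the bar at the group mean ± SD. Tyrobp to Csf1r and Cd207 to Cd74 lie higher in the 3 blister libraries and Cx3cr1 to Csf1r lower, while the groups overlap for H2-Aa and H2-Eb1 to Cd74.

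Other macrophage markers moved in both directions. Of 18 tested genes in the macrophage list 4 rose and 1 fell, beside 9.74% and 11.6% of all genes. The median log2 fold change of the list was -0.28. There were 2 rises without control 1 or control 2 and 0 falls without any 1 control. The gene that fell was Mertk, a receptor for the uptake of dying cells, at 25.9 ± 2.38 CPM in control and 7.04 ± 5.40 CPM in blister (edgeR adjusted p = 0.0417), a call also lost without blister 2 (edgeR adjusted p = 0.102). The complement genes of resident macrophages did not pass: C1qa was at 27.0 ± 10.1 against 30.4 ± 6.44 CPM, C1qb at 23.9 ± 11.4 against 32.4 ± 6.60 CPM and C1qc at 24.3 ± 13.3 against 31.4 ± 3.57 CPM (edgeR adjusted p = 0.672, 0.347 and 0.438), though C1qc was called lower without blister 2 (edgeR adjusted p = 0.0295). Emr1, which encodes F4/80, was at 9.54 ± 1.27 against 12.7 ± 3.04 CPM and was not called (edgeR adjusted p = 0.230). Those that rose included Fcgr1, an Fc receptor (2.44 ± 0.998 to 10.2 ± 5.80 CPM, edgeR adjusted p = 0.0300, lost without blister 2, control 1 or control 2 and up to 0.0947). Itgam, the CD11b integrin of neutrophils and monocytes, rose from 11.3 ± 2.78 to 43.6 ± 14.9 CPM (edgeR adjusted p = 0.00869). Cd14, the lipopolysaccharide coreceptor, stood at 130.5, 146 and 45.5 CPM in blister, against 5.75, 1.96 and 2.90 CPM in control.

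In the list of Langerhans and dendritic cells 1 of 10 tested genes rose and 2 fell, beside 9.74% and 11.6% of all genes. The median of the list was -0.067. The gene that rose, Cd80, which encodes a costimulator of T cells, was at 0.441 ± 0.257 CPM in control and 1.97 ± 0.213 CPM in blister (edgeR adjusted p = 0.0191). This call was lost without blister 1, control 1 or control 2 (edgeR adjusted p up to 0.0768), and the falls numbered 1 without blister 1 or control 1. Runx3, a transcription factor that Langerhans cells need and that T cells express too, stood at 6.33, 7.70 and 8.15 CPM in blister, against 22.8, 15.04 and 22.2 CPM in control, with a difference of -1.44 ± 0.22 (SE) in log2 (adjusted p = 0.00891 by edgeR). Mgl2, a lectin of dermal dendritic cells and macrophages, had 2, 1 and 2 counts in blister, against 14, 11 and 25 in control (edgeR adjusted p = 0.0138), a call lost without blister 1 or control 1 (adjusted p up to 0.0520). The other 11 of the list's 21 genes were not tested for low counts, among them Flt3, Ccr7 and Cd209a with at most 11 counts in a library. Of 18 pan-leukocyte genes edgeR called 6 higher and 0 lower (0 lower also at an unadjusted p under 0.05 and with DESeq2), with a median of 0.86. There were 1 to 2 rises without blister 1 or any 1 control and 4 without blister 2. Itgb2, the common leukocyte integrin chain, rose from 4.56 ± 1.53 to 21.4 ± 9.48 CPM (edgeR adjusted p = 0.0125). Cd53, a leukocyte tetraspanin, rose from 2.96 ± 0.867 to 9.52 ± 3.24 CPM (edgeR adjusted p = 0.0179, up to 0.0545 without blister 1 or control 2). Ptprc, which encodes CD45, was at 12.2, 15.8 and 13.2 CPM in blister, against 13.9, 7.83 and 8.004 CPM in control (edgeR adjusted p = 0.235). Against Ptprc, Csf1r counts gave 2.73, 2.96 and 2.46 in blister, against 3.58, 4.51 and 5.97 in control, and Cx3cr1 counts 0.293, 0.243 and 0.219 against 1.05, 0.661 and 0.972 (exact permutation, adjusted p = 0.2 for both). The groups overlapped for Tyrobp to Ptprc, at 2.27, 3.47 and 1.43 in blister against 1.23, 1.49 and 1.42 in control, and for Cd74 to Ptprc, at 4.66, 2.35 and 2.83 against 3.87, 6.52 and 5.81 (exact permutation, adjusted p = 0.311 for both). For T cell, B cell and mast cell markers edgeR called 0 of 12 tested genes, as did DESeq2, with 4 lower at an unadjusted p under 0.05 and a median of -0.75. Without blister 2, 1 was called lower.

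**Figure D4:**
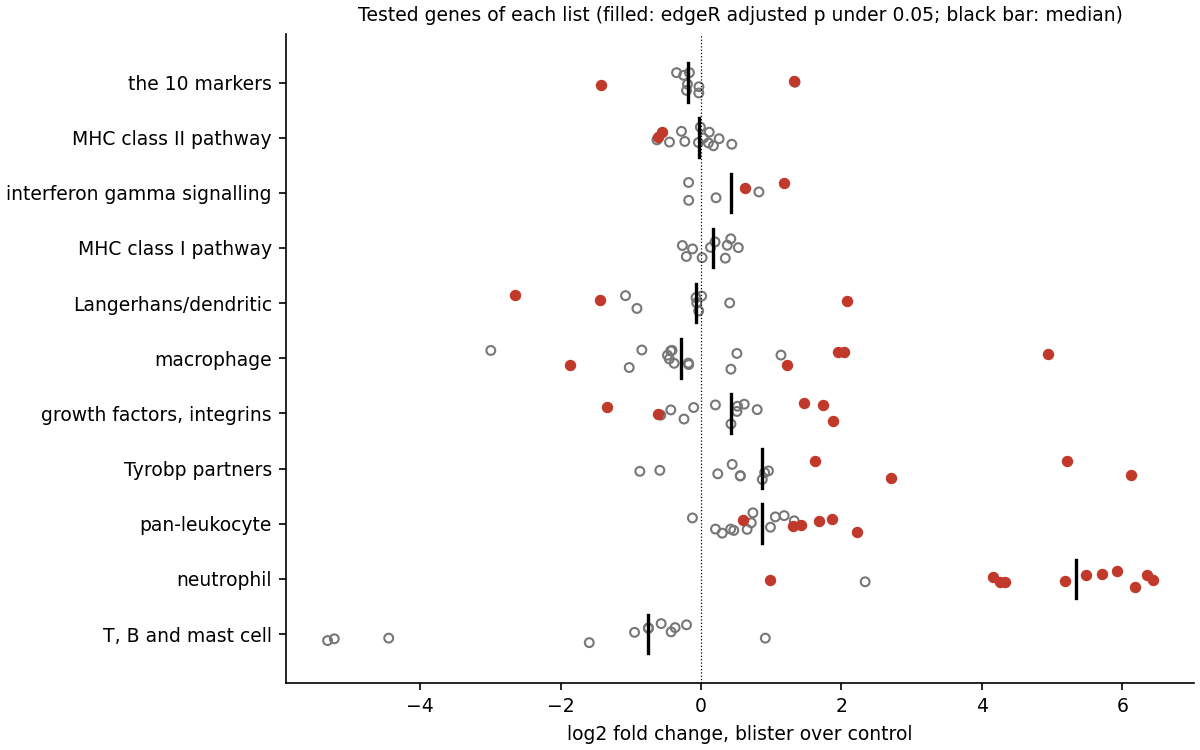
Log2 fold change, blister over control (horizontal axis), of every tested gene in the marker set and in 10 lists, filled where the edgeR adjusted p was under 0.05, with a black bar at each median. The 10 markers and the class II pathway centre near 0 (medians -0.18 and -0.02), Tyrobp partners and pan-leukocyte genes at 0.87 and 0.86, and neutrophil genes at 5.33.

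Of 11229 other genes averaging 5 CPM or more, the 3 nearest to Tyrobp in centred log2 CPM over the 6 libraries were the lectin gene Clec4n (distance 0.0987) and the actin regulators Coro1a (0.130) and Lcp1 (0.162). All 3 are genes of leukocytes, and all 3 were highest in blister 2. Clec4n stood at 7.98, 16.2 and 5.09 CPM in blister, against 4.67, 3.08 and 2.61 CPM in control. For Cx3cr1 the nearest were Npy, Cacna1a and Shc4 at distances of 0.330 to 0.345, for H2-Aa Zfp182, Lzts3 and Osbpl7 at 0.0604 to 0.0805, and for Cd207 Dusp5, Gjb2 and Angptl6 at 0.326 to 0.354. Gjb2, the connexin 26 gene of keratinocytes, was at 405 against 205 CPM.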

How the data were processed

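RNA-seq was measured in 6 libraries. Per the submitters' processing notes, HISAT2 2.0.0 and featureCounts were used, and the builds listed are NCBIM37 and mm9. Annotation and strand setting: not given in the sources used here. The deposited values are raw read counts per gene symbol, 7600567 to 15912863 per library.

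Genes were tested with edgeR 4.0.16 in R 4.3.3 (quasi-likelihood, TMM, group as the single term) after filterByExpr (minimum count 10, total 15), two-sided, with Benjamini-Hochberg adjustment over 14028 genes. SE is the log2 fold change divided by the root of F. The procedure was tested on simulated data. Alternatives covered scaling, filters, DESeq2 1.42.0, limma-voom 3.58.1, a replicate block, libraries left out and 3 covariates (log2 CPM with prior count 2).

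The markers, 16 companion lists (229 genes, 3 not matched) and tests were chosen with earlier results of these data known. The naming rule took all markers, the 2 smallest p-values and the most abundant gene of each list, and the 3 nearest genes of 4 markers; several of these genes, mainly of lists for other cell types, are not printed, and some genes are not reported here. Ciita, H2-D1, Il34, C1qa, C1qb, C1qc, Emr1, Fcer1g, Ptprc, Xist, the granule genes, Cd80, Mertk, Fcgr1, Csf2rb, Csf2rb2, Cd300lb, Clec5a, Flt3, Ccr7 and Cd209a were added after their values were seen. Adgre1 was matched as Emr1. No library was a copy of another. Plots used matplotlib 3.10.9.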

Additional observations from a re-analysis of the deposited data

How the results depend on the processing

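All genes called higher and lower numbered 1367 and 1626, 544 and 2831 with library size alone, 680 and 1016 with Xist as a covariate, 320 and 306 with the dermal covariate, and 306 to 1998 and 479 to 2063 with 1 library left out. With the neutrophil covariate edgeR called 0 higher and 0 lower (380 and 613 at an unadjusted p under 0.05). Since 91.4% of that covariate's variance lay between the groups, this fit says nothing about stability. For the dermal covariate that share was 50.2%, so its fit also takes up part of the group difference. Of the markers 1 was called higher and 1 lower. With 1 library left out it was 0 to 1 in each direction. Higher calls were 0 with upper-quartile scaling, library size alone, the strict filter of 5 CPM, limma-voom, and the Xist, dermal and neutrophil covariates. Lower calls were 2 with library size alone and 0 with limma-voom, the dermal and neutrophil covariates and without blister 3 and control 3. DESeq2 called Tyrobp and Cx3cr1 too (adjusted p = 0.00400 and 0.00785). At an unadjusted p under 0.05 edgeR gave 3 of the 10 markers. Cd207 did not enter the strict filter, nor did Aif1.

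The replicate number as a block moved both marker calls from 1 to 0 (Tyrobp adjusted p = 0.0646, Cx3cr1 0.0606) and left 1365 and 1511 genes. Deviations from the group means correlated across genes at 0.212, -0.259 and 0.0107 for replicates 1, 2 and 3, and not every library correlated best with its own number. With 3 libraries in each group, this cannot tell whether libraries of the same number were paired.

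Some directions turned. H2-Ab1 was at -0.31 to 0.15 with 1 library left out and 0.091 without blister 3 and control 3. Aif1 was at -0.79 to 0.38 with a library left out, 0.24 without blister 3 and control 3 and 0.24 with the dermal covariate. C1qa was at -0.46 to 0.080 with 1 library left out and 0.018 without blister 3 and control 3. With the dermal covariate C1qc was at 0.069 and Il34 at -0.30. With the neutrophil covariate, a fit that says nothing about stability, Tyrobp was at -1.30 ± 1.02 (SE, edgeR adjusted p = 0.829). In that fit March8 was at 0.059, Ciita 1.11, H2-D1 -0.87, Csf1 -0.37, Tgfb2 0.27, Fcer1g -1.97, Cd53 -0.37, Arhgdib -0.20, Clec4n -1.26, Coro1a -1.53, Lcp1 -0.70, Mertk 0.029, Csf2rb -1.35, Csf2rb2 -1.54 and Clec5a -0.92. The cause was not tested.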
